A study of Mus musculus with 12 samples.

Results

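A set of 10 genes that mark endocrine progenitors or β-cells that have lost their identity was followed in pancreatic islets of mice that overexpress miR-7 in β-cells. They are Neurog3, Sox9, Myc, Mycn, Kit, Aldh1a3, Gast, Cck, Cd9 and Cd81. The members were chosen by name, by matching the Ensembl identifiers of the count table to these symbols, and all 10 were found among 37991 genes. Each of the 10 passed the filter on low counts and was tested with 15961 genes in all. Bulk RNA-seq was run on whole islets of male C57BL/6 mice, and the comparison asks how islet gene expression changes when β-cells lose their identity. Wt islets came from wild-type littermates and Tg7 islets from transgenic mice that carry extra miR-7 (the miR-7a2 gene) in β-cells, both at 2 weeks (2w) and at 12 weeks (12w) of age. Each of the 4 groups had 3 libraries, each made from a pool of 3 or more animals, and the 12w Wt libraries are numbered 1, 2 and 4. Tg7 mice are described as normoglycaemic at 2w and hyperglycaemic at 12w, so at 12w the transgene and the diabetic state cannot be told apart.

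During pancreas development Sox9 marks multipotent progenitors, and a pulse of Neurog3 commits cells to the endocrine fate before the levels of both genes fall. In several mouse models of diabetes, β-cells that lose insulin switch on Aldh1a3, the gastrin gene Gast or the cholecystokinin gene Cck, and regain progenitor genes. Myc and Mycn drive growth and are held low in mature β-cells, Kit is a receptor of progenitor cells, and the tetraspanins Cd9 and Cd81 are surface proteins that have been used to tell subsets of β-cells apart.

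Levels are given as CPM, the counts of a gene per 1e6 counts of the library, after scaling with TMM factors, which correct each library for the share of reads taken up by its most abundant genes. Differences are log2 fold changes with their standard error (SE), tested by edgeR's quasi-likelihood method with all 12 libraries in 1 model, and p-values were adjusted after Benjamini and Hochberg across the 15961 genes. A gene is said to rise or fall when its adjusted p lies below 0.05. Since the libraries are pools, these p-values measure the spread between pooled libraries and not between single mice. In bulk RNA, fewer cells of a type and less RNA per cell cannot be told apart.

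The libraries held between 11610697 and 17515758 counts, and the 4 groups lay apart in a principal component analysis. Of all counts, the insulin genes Ins1 and Ins2 took up 10.1 to 15.4% (2w Wt), 1.84 to 4.09% (2w Tg7), 14.8 to 30.0% (12w Wt) and 8.08 to 8.24% (12w Tg7). Of 10 β-cell markers, 8 fell in Tg7 islets at each age. The alpha, delta and PP cell hormones Gcg, Sst and Ppy were present in every group, Gcg at 32291 CPM or more on average. The mature transgenic miR-7 is not measured by these libraries, and the rows of the miR-7 precursor genes do not mark the transgene. Mir7-2 had 27 counts over the 2w Wt libraries, 14 over 2w Tg7, 17 over 12w Wt and 11 over 12w Tg7 libraries. Without the TMM correction, the median over all genes moved from 0.03 to 0.19 at 2w and from -0.01 to 0.43 at 12w, and 5198 genes rose and 360 fell at 12w in place of 1989 and 1783. Changes below are therefore relative to the bulk of the genes. Among the 12w Wt libraries, replicate 4 had the lowest insulin share (14.8%, beside 30.0 and 27.0%). Its β-cell markers summed to 199077 CPM, beside 482566 and 367844 CPM in the other 12w Wt libraries. Without it, the log2 effect of Tg7 was called higher at 12w than at 2w for 412 genes and lower for 167. With all libraries these numbers were 139 and 49. The library Tg7 2w replicate 1 stood apart in markers of other cells. Its B and T lymphocyte markers summed to 38.3 CPM, beside 5.39 and 7.20 CPM in the other 2w Tg7 libraries, its macrophage markers to 107 CPM, beside 67.2 and 58.5, and its stellate and fibroblast markers to 722 CPM, beside 544 and 585. Of the macrophage markers Lyz2 varied most between the 2w Tg7 libraries (28.1 ± 30.2 CPM, mean ± SD, n = 3). Cd68 (6.31 ± 1.35 CPM) and Csf1r (10.4 ± 0.736 CPM) varied little. Without Tg7 2w replicate 1, 3 of the 10 members rose at 2w (Myc, Kit and Cd81), where 1060 of 16362 tested genes rose.

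The overexpressed miRNA can be set beside the members' 3′ UTRs, since a match to its seed is what the transgene could act on directly. The seed is bases 2 to 8 of the mature miRNA and is shown in capitals in the RefSeq sequence.
mmu-miR-7a-5p: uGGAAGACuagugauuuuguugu
The reverse complement of the seed, GTCTTCC, was searched in the longest annotated 3′ UTR of each gene in mm9, and so was the weaker match of bases 2 to 7 followed by A. Aldh1a3 held both kinds of match and Gast held the weaker one. The first Aldh1a3 window is chr7:73536859-73536888 on the minus strand, 705 bases past the stop codon, the second is chr7:73536044-73536073 on the same strand, and the Gast window is chr11:100198214-100198237 on the plus strand. Capitals mark the match.
Aldh1a3 match to bases 2 to 8: ccctatagttatgagatgGTCTTCCacgac
Aldh1a3 match to bases 2 to 7 and A: acactagagggttgctatTCTTCCAttgta
Gast match to bases 2 to 7 and A: gactagcaacacTCTTCCAgagcc
The other 8 members held neither letter string in their longest 3′ UTR. Of 20007 genes with a 3′ UTR, 11.2% held GTCTTCC and 21.5% held either form. The members that held a match are among the 8 of 10 members that rose in 12w Tg7 islets, as the values below show. Most members without a match rose there as well.

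Most of the progenitor and dedifferentiation markers had higher levels in Tg7 than in Wt islets at each age, and the number of members past the threshold was larger at 12w. At 2w, 4 of 10 members rose (Neurog3, Myc, Kit and Cd81) and 0 fell. Over all tested genes, 6.07% rose and 4.55% fell. At 12w, 8 of 10 rose (all but Sox9 and Myc) and 0 fell, where 12.5% of all genes rose and 11.2% fell. The members were chosen with earlier results of these data known, so these shares give scale and are no test of the set. The members' median log2 fold change was 0.91 at 2w and 1.67 at 12w, beside 0.03 and -0.01 over all genes. For 8 members every 2w Tg7 library lay above every 2w Wt library, as it did for 17.8% of all genes, and for 9 members this held at 12w, as it did for 20.7%. The count at 2w depended on single libraries. It was 2 without Wt 2w replicate 1 (Myc and Kit) and 2 without Wt 2w replicate 3 (Sox9 and Kit).

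**Figure D1:**
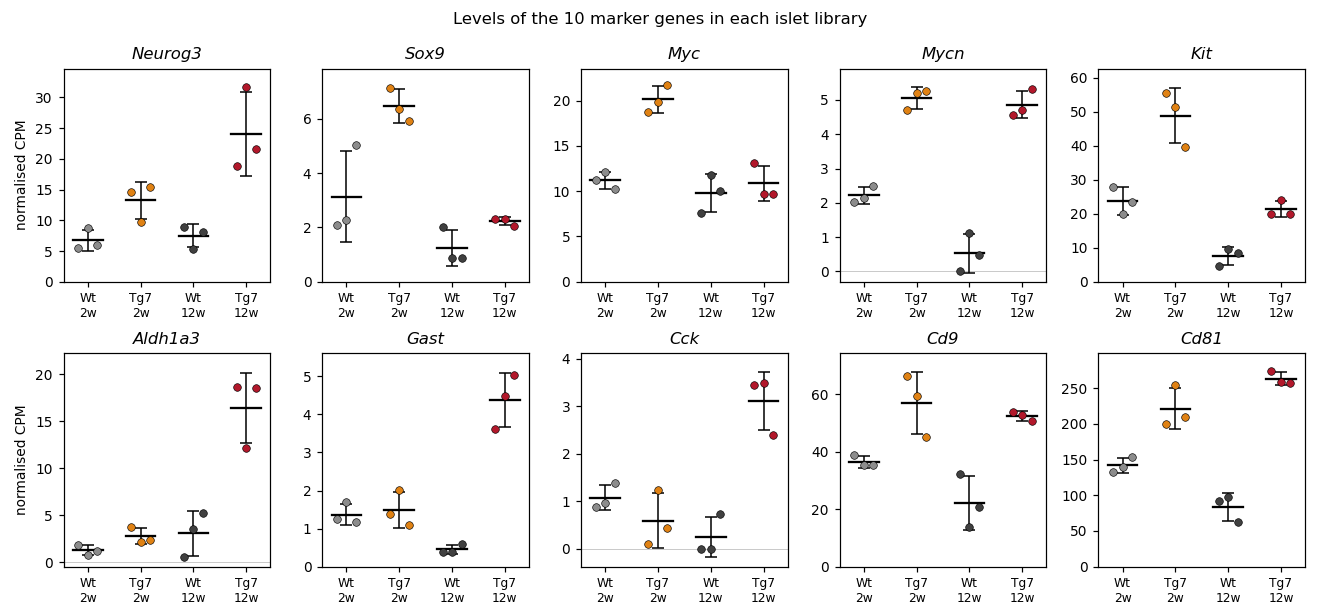
Normalised CPM of the 10 genes in each of the 12 libraries, by group (x axis), with 1 point per library, a line at the mean and bars of ± 1 SD (n = 3). Each panel has its own linear axis that includes 0. In 9 of the 10 panels all 12w Tg7 points lie above all 12w Wt points, and Myc is the exception.

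The tetraspanins led the members by level, and the lowest mean belonged to Sox9, Mycn or Aldh1a3, depending on the group. Divided by exon length, the level of Cd81 was 62.5 ± 4.50 CPM per kb at 2w in Wt and 116 ± 4.0 at 12w in Tg7 islets (mean ± SD over 3 libraries). In every group Cd9 came next. Neurog3 followed by its mean, which at 2w its spread did not separate from Myc and Kit in Wt islets (4.39 ± 1.10, 4.12 ± 0.344 and 4.07 ± 0.699 CPM per kb) or from Kit in Tg7 islets (8.60 ± 1.98 and 8.38 ± 1.41). In 12w Tg7 islets Cd9 stood at 25.7 ± 0.802 and Neurog3 at 15.6 ± 4.42 CPM per kb. In that group Sox9, at 0.540 ± 0.0361 CPM per kb, was the lowest. In 12w Wt islets the lowest was Mycn at 0.160 ± 0.170 CPM per kb, which its spread does not separate from Cck at 0.288 ± 0.499 or Sox9 at 0.303 ± 0.160. Among all tested genes, Neurog3 stood at the percentile 45.9 of levels per kb in 2w Wt and 78.7 in 12w Tg7 samples, and at 12w Gast stood at 22.7 in Wt and 66.5 in Tg7.

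Neurog3 (chr10:61595838-61597511, plus strand, mm9) encodes the basic helix-loop-helix factor that starts endocrine differentiation. At 2w its level was 5.52, 8.69 and 6.07 CPM in the Wt libraries and 14.6, 9.74 and 15.3 CPM in the Tg7 libraries. At 12w it was 8.95, 5.40 and 8.13 CPM in Wt and 18.8, 31.7 and 21.6 CPM in Tg7. Tg7 libraries lay above Wt libraries at both ages without overlap, and the 2 Wt groups overlapped each other. The log2 fold change was 0.98 ± 0.27 (SE) at 2w, with an adjusted p of 0.0340 by edgeR's quasi-likelihood test, and 1.69 ± 0.27 at 12w, with an adjusted p of 0.000575. Leaving out replicate 1 or 3 of either 2w group ended the 2w call (adjusted p from 0.0747 to 0.138 by edgeR), and the 12w call was kept without any single library. Of the 1540 exon bases of Neurog3, 273 overlap 2010107G23Rik on the other strand, and none of the sources used here says whether the counting used strand. The value of 2010107G23Rik was 0.37 ± 0.17 at 2w (adjusted p 0.173, edgeR), and this gene rose by 0.62 ± 0.17 at 12w (adjusted p 0.0175), from 16.4 ± 2.95 to 25.3 ± 2.28 CPM. Reads of the 2 genes in the shared bases cannot be told apart.

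Sox9 (chr11:112643538-112649074, plus strand) encodes the transcription factor that maintains pancreatic progenitors and stays on in duct cells. In 2w Wt libraries it stood at 2.08, 2.28 and 5.05 CPM and in 2w Tg7 libraries at 7.15, 6.37 and 5.91 CPM. Sox9 at 12w stood at 2.02, 0.873 and 0.867 CPM in Wt and at 2.31, 2.32 and 2.06 CPM in Tg7. All Tg7 libraries lay above all Wt libraries of their age, at 12w by a narrow margin over 1 Wt library. The difference did not pass the threshold at either age. The log2 fold change was 1.03 ± 0.38 at 2w (adjusted p 0.0929, edgeR) and 0.90 ± 0.43 at 12w (adjusted p 0.15). Each value turned on 1 Wt library: without Wt 2w replicate 3 the 2w value was 1.56 (adjusted p 0.0389, edgeR) and without Wt 12w replicate 1 the 12w value was 1.33 (adjusted p 0.0458).

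The other genes of these 2 stages did not move as a set. Of 16 tested endocrine progenitor genes other than the members, 0 rose and 1 fell at 2w, and 2 rose and 1 fell at 12w. Insm1, a zinc finger factor of endocrine differentiation, fell at 2w by 0.72 ± 0.16 on the log2 scale (adjusted p 0.0133, edgeR), from 347 ± 45.1 to 211 ± 27.1 CPM (SD, n = 3). Neurod1, a direct target of Neurog3, fell at 12w by 0.74 ± 0.13 (adjusted p 0.00121, edgeR), from 238 ± 45.5 to 142 ± 7.22 CPM. Rfx6 rose at 12w by 0.72 ± 0.17 (adjusted p 0.00728, edgeR), and Isl1 by 0.42 ± 0.14 (adjusted p 0.0492). Pax4 had 3 counts in all 2w Wt libraries, 8 in 2w Tg7 libraries and 0 in both 12w groups, too few to test. Among 16 tested pancreatic progenitor genes, 0 changed at 2w by edgeR, and at 12w 4 rose and 0 fell. The 4 were Tead2 (0.128 ± 0.167 to 0.935 ± 0.487 CPM), Spp1, which duct cells also express (129 ± 23.4 to 326 ± 149 CPM), Id3 (30.7 ± 5.89 to 54.2 ± 5.74 CPM) and Gata6 (17.2 ± 2.96 to 24.7 ± 2.46 CPM). Of 11 tested stem cell genes, 0 changed at 2w, and at 12w Nes rose by 0.91 ± 0.27 (adjusted p 0.0257, edgeR) and Prom1 fell by 0.71 ± 0.15 (adjusted p 0.00372). The pluripotency genes Pou5f1, Nanog and Sox2 had at most 19 counts summed over the libraries of any group and were not tested. With library size alone 9 of the 16 endocrine progenitor genes rose at 12w and 0 fell, so the list's direction depends on the scaling.

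The summed level of ductal markers was 953 to 997 CPM in 2w Wt libraries, 859 to 1006 in 2w Tg7, 726 to 968 in 12w Wt and 1073 to 1364 in 12w Tg7 libraries, and 3 of 8 tested genes rose at 12w (Ambp, Spp1 and Muc1). Krt19, a keratin that defines duct cells, at 12w was 3.34 ± 1.37 CPM in Wt and 2.06 ± 1.02 CPM in Tg7 islets (log2 fold change -0.67 ± 0.42, adjusted p 0.286, edgeR). The part of duct cells in the Sox9 values was not tested.

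Myc (chr15:61816946-61821929, plus strand) and Mycn (chr12:12942902-12948720, minus strand) encode related helix-loop-helix factors that pair with Max and bind E-boxes. Myc stood at 11.3, 12.1 and 10.2 CPM in 2w Wt libraries and at 18.8, 19.9 and 21.7 CPM in 2w Tg7 libraries. Its 12w level was 7.56, 11.8 and 10.0 CPM in Wt and 13.1, 9.74 and 9.73 CPM in Tg7. The 2w groups lay apart and the 12w groups overlapped. Myc rose at 2w by 0.85 ± 0.19 (adjusted p 0.0111, edgeR), and its log2 fold change at 12w was 0.14 ± 0.19 (adjusted p 0.660) with a 95% interval from -0.27 to 0.55. Leaving out Wt 2w replicate 3 ended the 2w call (0.78, adjusted p 0.0695, edgeR), and without Wt 12w replicate 1 the 12w value was -0.03. The difference between the effects at both ages was -0.71 ± 0.27 and did not pass (adjusted p 0.247, edgeR).

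Mycn is on in embryonic progenitors. Its level was 2.02, 2.14 and 2.50 CPM in 2w Wt and 4.70, 5.2 and 5.27 CPM in 2w Tg7 libraries. At 12w it was 0, 1.11 and 0.467 CPM in Wt, from 0, 14 and 7 counts, and 4.57, 4.70 and 5.32 CPM in Tg7, from 81, 85 and 93 counts. The Tg7 groups of both ages overlapped, and every 12w Wt library lay below every 2w Wt library. Its log2 fold change was 1.18 ± 0.44 at 2w (adjusted p 0.102, edgeR) and 3.08 ± 0.52 at 12w (adjusted p 0.000851), an 8.44-fold higher level. The 12w value was 4.04 without Wt 12w replicate 2. At 2w Mycn passed the threshold without Wt 12w replicate 1 (1.18, adjusted p 0.0202, edgeR). The third family member, Mycl, had 1.56 ± 0.527 CPM (Wt) and 3.26 ± 1.29 CPM (Tg7) at 2w and 0.288 ± 0.252 and 0.905 ± 0.456 CPM at 12w and did not pass at either age (log2 fold changes 1.07 ± 0.56, adjusted p 0.234, and 1.47 ± 0.69, adjusted p 0.143, edgeR).

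Genes known as Myc targets did not rise as a set at either age, while Myc rose at 2w and Mycn at 12w. Of 25 such genes, 1 rose and 5 fell at 2w and 0 rose and 8 fell at 12w, with median log2 fold changes of -0.18 and -0.20. Cad, which starts pyrimidine synthesis, fell from 133 ± 15.7 to 47.3 ± 6.85 CPM at 2w (log2 fold change -1.49 ± 0.15, adjusted p 4.59e-05, edgeR) and from 89.6 ± 15.3 to 41.4 ± 2.73 CPM at 12w (-1.12 ± 0.15, adjusted p 0.00016). Srm, the spermidine synthase, fell by 0.93 ± 0.16 at 2w and by 1.14 ± 0.17 at 12w, and Tfrc, the transferrin receptor, by 1.13 ± 0.31 and by 2.07 ± 0.32. Ldha, a glycolytic enzyme, was the single riser at 2w, from 33.1 ± 3.39 to 65.0 ± 19.2 CPM (0.98 ± 0.27, adjusted p 0.0342, edgeR). With library size alone, 1 rose and 2 fell at 2w and 6 rose and 3 fell at 12w, so only the 12w balance of the list changed sides. Of 17 genes of the wider Myc network, 1 rose and 1 fell at 2w (Mxd4 by 0.65 ± 0.12 and Mlx by 0.61 ± 0.15) and 1 rose and 5 fell at 12w. The 4 largest at 12w were all lower, Mxd1 by 0.86 ± 0.15, Mlx by 0.84 ± 0.15, Mga by 0.56 ± 0.17 and Mycbp2 by 0.52 ± 0.14. Under library size alone 5 of the network genes rose at 12w and 0 fell. The partner Max was 63.5 ± 4.46 and 53.6 ± 6.17 CPM in 2w Wt and Tg7 islets and 69.3 ± 4.76 and 61.0 ± 2.53 CPM at 12w, with no call at either age (adjusted p 0.193 and 0.289, edgeR).

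Kit (chr5:75970941-76052747, plus strand) encodes the receptor tyrosine kinase for stem cell factor. It stood at 27.9, 19.8 and 23.4 CPM in 2w Wt and at 55.5, 51.4 and 39.7 CPM in 2w Tg7 libraries. By 12w the level was 4.66, 9.76 and 8.33 CPM in Wt and at 19.96, 24.01 and 19.9 CPM in Tg7. The groups did not overlap at either age, and the 12w Tg7 level was in the range of the 2w Wt level. Kit rose in Tg7 islets by 1.04 ± 0.22 at 2w (adjusted p 0.00749, edgeR) and by 1.46 ± 0.23 at 12w (adjusted p 0.000497). Both calls were kept when any 1 of the 12 libraries was left out, and of the 4 members called at 2w this held for Kit alone.

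Its ligand Kitl at 2w was 14.4 ± 1.32 CPM in Wt and 15.6 ± 0.648 CPM in Tg7 islets (adjusted p 0.746, edgeR) and rose at 12w from 6.95 ± 1.97 to 11.8 ± 1.67 CPM (0.75 ± 0.20, adjusted p 0.0163). Of 20 genes of Kit signalling, 1 rose and 0 fell at 2w, namely the adaptor Gab1 (0.60 ± 0.15, adjusted p 0.0229, edgeR), and 3 rose and 5 fell at 12w. The largest of these were Grb10 (fell by 0.80 ± 0.14), Kitl, Ptpn11 (fell by 0.72 ± 0.20) and Stat5b (fell by 0.59 ± 0.17). Under library size alone 8 rose and 0 fell at 12w. Kit also marks mast cells. Of 8 mast cell genes, 7 had 0 counts in 2w Wt, 12w Wt and 12w Tg7 libraries and 5 had 0 counts in 2w Tg7 libraries. Cpa3, which defines mast cells, had 2 counts in 2w Tg7 libraries and 0 in the other 3 groups. The remaining gene, Hdc, which makes histamine, rose from 2.25 ± 0.733 to 7.81 ± 1.77 CPM at 2w and from 3.54 ± 0.383 to 9.13 ± 0.637 CPM at 12w (adjusted p 0.000947 and 0.00231, edgeR).

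Aldh1a3 (chr7:73535778-73572403, minus strand) encodes a retinaldehyde dehydrogenase, an enzyme of retinoic acid synthesis that is used as a marker of failing β-cells. It stood at 1.84, 0.810 and 1.22 CPM in 2w Wt and at 3.79, 2.14 and 2.38 CPM in 2w Tg7 libraries. At 12w it stood at 0.504, 3.49 and 5.20 CPM in Wt and at 18.7, 12.1 and 18.5 CPM in Tg7. The 12w Wt libraries spread over a wide range and still lay below the Tg7 libraries. Between the genotypes Aldh1a3 differed by 1.09 ± 0.53 at 2w (adjusted p 0.207, edgeR) and 2.35 ± 0.50 at 12w (adjusted p 0.00394), a 5.11-fold higher level. The 2 letter matches to miR-7 shown above did not go with a lower level of this mRNA, and whether the miRNA acts on it was not tested.

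Of 16 other retinoic acid genes tested, 1 rose and 1 fell at 2w and 5 rose and 0 fell at 12w. Aldh1a2, which makes retinoic acid in the embryo, rose at both ages, from 0.576 ± 0.144 to 3.15 ± 0.741 CPM at 2w (2.45 ± 0.37, adjusted p 0.00106, edgeR) and from 0.527 ± 0.0649 to 3.32 ± 0.388 CPM at 12w (2.63 ± 0.39, adjusted p 0.000322). Crabp2, which carries retinoic acid to its receptor, rose at 12w from 0.179 ± 0.190 to 17.7 ± 1.24 CPM (6.87 ± 1.62, adjusted p 0.00760, edgeR). The retinoic acid degrading enzyme Cyp26b1 rose at 12w from 1.17 ± 0.861 to 4.67 ± 0.319 CPM and the receptor Rxra from 40.5 ± 11.1 to 72.5 ± 5.51 CPM. Dhrs9, a retinol dehydrogenase, fell at 2w from 1.78 ± 0.518 to 0.207 ± 0.190 CPM (adjusted p 0.0404, edgeR). Aldh1a1 did not pass, with 2.44 ± 1.71 and 4.32 ± 2.20 CPM at 2w and 3.39 ± 1.10 and 3.59 ± 1.32 CPM at 12w in Wt and Tg7 islets, nor did Aldh1a7 (log2 fold changes 1.99 ± 0.87 and 0.51 ± 0.89). Without the TMM correction 3 genes of the list rose at 2w and 8 at 12w.

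**Figure D2:**
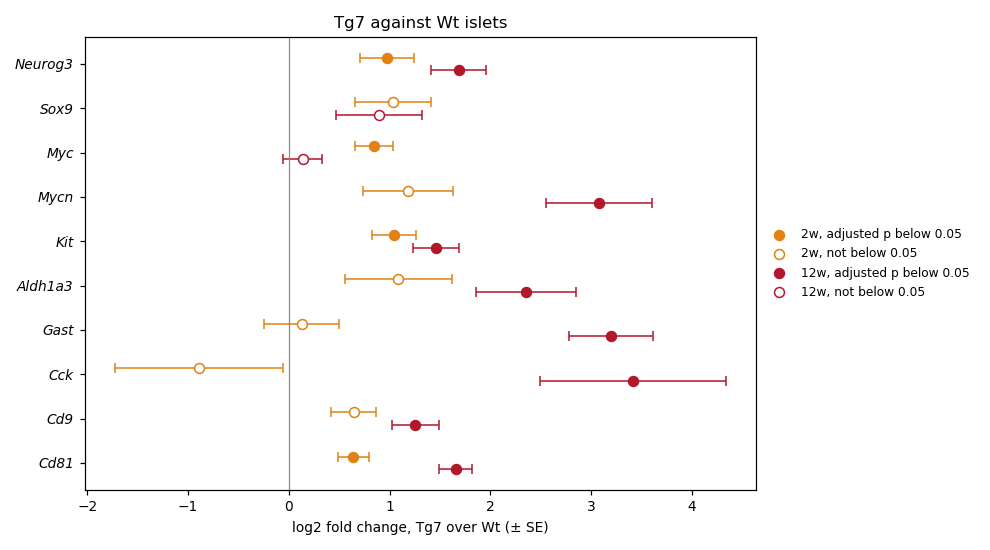
Log2 fold change of each gene in Tg7 over Wt islets (x axis) at 2w (orange) and 12w (red), with bars of ± 1 SE from edgeR and filled points where the adjusted p lies below 0.05. There are 4 filled points at 2w and 8 at 12w, and Gast, Cck and Mycn lie above 3 at 12w.

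Gast (chr11:100195721-100198310, plus strand) and Cck (chr9:121398943-121404807, minus strand) encode the sister hormones gastrin and cholecystokinin, which share their active end. Gastrin is made in the fetal but not the adult islet. Gast stood at 1.25, 1.69 and 1.17 CPM in 2w Wt and at 1.39, 2.01 and 1.09 CPM in 2w Tg7 libraries. The 12w libraries held 0.378, 0.397 and 0.6 CPM in Wt, from 3, 5 and 9 counts, and at 3.61, 4.48 and 5.03 CPM in Tg7, from 64, 81 and 88 counts. The 2w groups overlapped and the 12w groups were far apart. The log2 fold change was 0.13 ± 0.37 at 2w (adjusted p 0.864, edgeR; 95% interval -0.67 to 0.92) and 3.20 ± 0.42 at 12w (adjusted p 0.000111), a 9.18-fold higher level. Without Tg7 2w replicate 2 the 2w value was -0.14. The effect at 12w exceeded that at 2w by 3.07 ± 0.56 (adjusted p 0.0165, edgeR). Leaving out Wt 2w replicate 2, Tg7 12w replicate 2 or Tg7 12w replicate 3 ended that call, with an adjusted p of 0.0527 to 0.0662.

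Cck stood at 0.890, 0.958 and 1.38 CPM in 2w Wt and at 0.107, 1.23 and 0.447 CPM in 2w Tg7 libraries. At 12w it stood at 0, 0 and 0.733 CPM in Wt, from 0, 0 and 11 counts, and at 3.44, 3.49 and 2.40 CPM in Tg7, from 61, 63 and 42 counts. Tg7 libraries were the highest at 12w and did not overlap with Wt, whereas at 2w they reached from below to within the Wt range. On the log2 scale the difference was -0.89 ± 0.83 at 2w (adjusted p 0.539, edgeR) and 3.41 ± 0.92 at 12w (adjusted p 0.0160). At 12w the call was lost without Tg7 12w replicate 2 (3.34, adjusted p 0.0513, edgeR). Without Wt 12w replicate 4 the remaining Wt libraries hold 0 counts, so that no fold is given. At 2w the value was -1.93 without Tg7 2w replicate 2 (adjusted p 0.242, edgeR).

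Sequence upstream of both hormone genes and of Neurog3 is shown because these genes rose at 12w and because Neurog3, Myc and Mycn belong to factor families that bind the E-box CANNTG. The sequences are the 250 bases before the annotated start in RefSeq (GRCm38.p6), written 5′ to 3′ on the strand of the gene, with each CANNTG, which reads the same on both strands as a pattern, in capitals. The windows are chr10:62132840-62133089 (plus) for Neurog3, chr11:100334157-100334406 (plus) for Gast and chr9:121495695-121495944 (minus) for Cck.
Neurog3: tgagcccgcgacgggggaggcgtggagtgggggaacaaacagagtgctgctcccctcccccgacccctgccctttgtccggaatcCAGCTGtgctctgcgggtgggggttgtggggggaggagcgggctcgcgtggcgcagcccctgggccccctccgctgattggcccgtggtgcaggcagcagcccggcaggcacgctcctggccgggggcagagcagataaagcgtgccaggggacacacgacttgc
Gast: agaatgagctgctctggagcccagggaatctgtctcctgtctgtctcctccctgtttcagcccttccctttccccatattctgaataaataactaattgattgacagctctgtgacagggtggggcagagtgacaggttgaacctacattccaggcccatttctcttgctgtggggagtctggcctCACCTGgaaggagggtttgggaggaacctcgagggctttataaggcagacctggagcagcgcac
Cck: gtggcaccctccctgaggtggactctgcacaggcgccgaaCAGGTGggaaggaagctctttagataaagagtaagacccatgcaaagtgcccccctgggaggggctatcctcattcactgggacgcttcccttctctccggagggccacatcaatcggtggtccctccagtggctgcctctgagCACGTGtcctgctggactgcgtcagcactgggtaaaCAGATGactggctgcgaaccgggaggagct
Neurog3 and Gast hold 1 such E-box and Cck holds 3, of which 1 is CACGTG, the form that Myc and Max prefer. Of 27025 mouse promoters of this length, 66.0% hold CANNTG and 6.05% hold CACGTG. An E-box was found in 6 of the 7 members with a RefSeq promoter here, 1 in Mycn, 3 in Cd9 and 1 in Cd81, and Kit had 0. Sox9, Myc and Aldh1a3 had no entry. These are matches of letters and no measured sites.

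Among 11 tested peptide hormones and receptors besides Gast and Cck, 1 rose and 1 fell at 2w and 2 rose and 0 fell at 12w. At 2w Ppy, the pancreatic polypeptide, rose from 3065 ± 891 to 6263 ± 1365 CPM (1.03 ± 0.31, adjusted p 0.0475, edgeR), and Trh, which fetal β-cells make, fell from 1.02 ± 0.227 to 0.0649 ± 0.112 CPM (adjusted p 0.0363). At 12w Vip rose from 9.22 ± 0.914 to 58.4 ± 17.3 CPM (2.66 ± 0.50, adjusted p 0.00176, edgeR) and Tac1 from 1.29 ± 0.0942 to 5.02 ± 0.970 CPM (1.97 ± 0.43, adjusted p 0.00451). The receptor Cckar was 2.51 ± 1.14 and 7.79 ± 7.20 CPM at 2w and 4.73 ± 1.63 and 4.08 ± 1.43 CPM at 12w in Wt and Tg7 islets, with no call. The receptor for both hormones, Cckbr, had 5, 2, 1 and 13 counts summed over 2w Wt, 2w Tg7, 12w Wt and 12w Tg7 libraries and was not tested. Of 8 enzymes that modify peptide hormones, 1 rose and 1 fell at 2w and 4 rose and 0 fell at 12w. Qpct, which closes the N-terminus of gastrin, rose at both ages, from 4.99 ± 0.318 to 22.7 ± 2.22 CPM at 2w (2.18 ± 0.21, adjusted p 3.02e-05, edgeR) and from 3.74 ± 1.06 to 27.9 ± 5.24 CPM at 12w (2.91 ± 0.22, adjusted p 1.27e-06). Pam, which amidates both hormones, rose at 12w by 0.81 ± 0.16 and Tpst1, which sulfates tyrosines, by 0.75 ± 0.14, while the convertase Pcsk1 fell at 2w by 1.70 ± 0.29.

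Cd81 (chr7:150238644-150253839, plus strand) and Cd9 (chr6:125410284-125444809, minus strand) encode tetraspanins, which gather integrins and other proteins into patches of the membrane. Cd81 stood at 133, 139.5 and 153 CPM in 2w Wt and at 199.8, 254 and 209.7 CPM in 2w Tg7 libraries. The level at 12w was 91.3, 97.7 and 61.9 CPM in Wt and at 274, 259 and 257 CPM in Tg7. The 4 groups did not overlap with each other in any pair, in the order 12w Tg7, 2w Tg7, 2w Wt and 12w Wt from high to low. Cd81 rose in Tg7 islets by 0.64 ± 0.16 at 2w (adjusted p 0.0194, edgeR) and by 1.66 ± 0.16 at 12w (adjusted p 1.01e-05). Leaving out any 2w Wt library or Tg7 2w replicate 2 ended the 2w call (adjusted p 0.0530 to 0.0846, edgeR). The effect at 12w exceeded that at 2w by 1.02 ± 0.22 (adjusted p 0.0436, edgeR), a call that was kept without Tg7 2w replicate 2, Wt 12w replicate 2 or Wt 12w replicate 4 and lost without any 1 of the other 9 libraries (adjusted p 0.0568 to 0.135). Cd81 shares 30 exon bases with R74862 on the other strand, which had no call at either age.

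Cd9 stood at 39.0, 35.3 and 35.2 CPM in 2w Wt and at 66.4, 59.5 and 45.1 CPM in 2w Tg7 libraries. At 12w it stood at 32.3, 13.8 and 20.7 CPM in Wt and at 53.9, 52.8 and 50.7 CPM in Tg7. Every Tg7 library lay above every Wt library of either age, and the 2 Tg7 groups overlapped. On the log2 scale Cd9 differed by 0.64 ± 0.22 at 2w (adjusted p 0.0810, edgeR) and 1.25 ± 0.23 at 12w (adjusted p 0.00160). The 2w difference passed the threshold without Wt 12w replicate 1 or 2 (adjusted p 0.0288 and 0.0248, edgeR), with little change in its size.

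Of 22 other tetraspanins tested, 3 rose and 0 fell at 2w and 8 rose and 0 fell at 12w, with a median log2 fold change of 0.19 and 0.39. Tspan6 rose from 1.90 ± 0.263 to 4.42 ± 0.677 CPM at 2w (adjusted p 0.00713, edgeR) and from 3.68 ± 0.253 to 10.1 ± 1.76 CPM at 12w (adjusted p 0.000746). Tspan33 rose from 22.4 ± 3.68 to 31.7 ± 4.51 CPM at 2w and from 26.6 ± 0.605 to 62.7 ± 3.16 CPM at 12w (adjusted p 0.0410 and 4.3e-05, edgeR), Tspan4 rose by 0.90 ± 0.21 at 2w, and Tspan17 and Cd151 rose at 12w by 1.11 ± 0.24 and 1.01 ± 0.15. Of 13 partner genes of Cd9 and Cd81, 3 rose at 2w and 5 at 12w and 0 fell. Itga5, the fibronectin receptor chain, rose at 12w from 7.05 ± 0.776 to 19.3 ± 0.940 CPM (1.46 ± 0.15, adjusted p 1.48e-05, edgeR), and the interferon-induced membrane proteins Ifitm1 and Ifitm3 by 2.00 ± 0.49 and 1.36 ± 0.30. No scaling gave a gene of these 2 lists that fell, and library size alone gave 13 tetraspanins and 11 partners that rose at 12w.

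**Figure D3:**
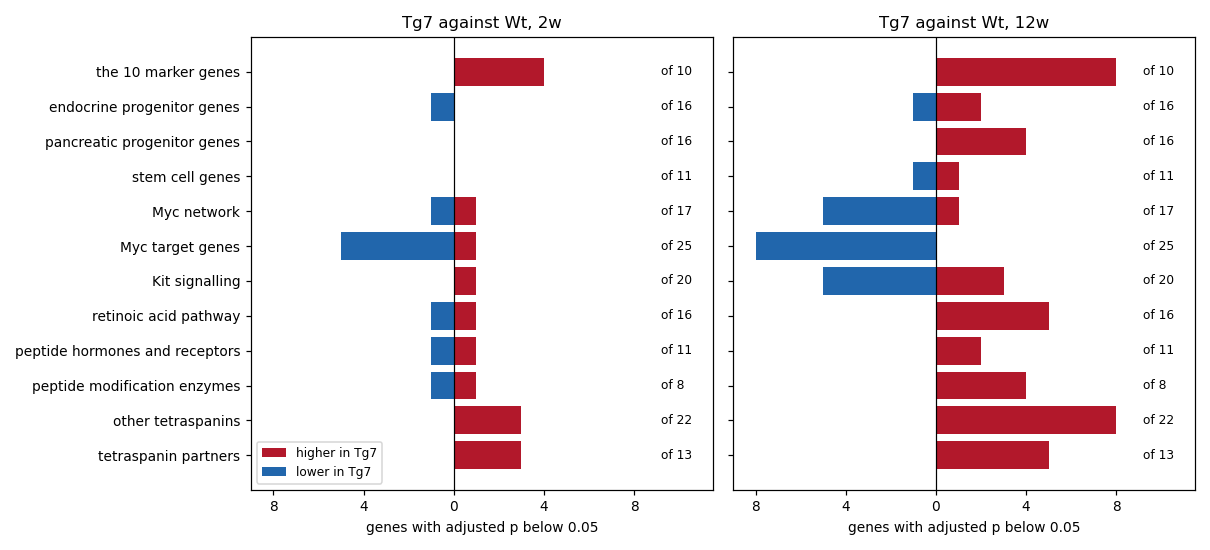
Number of genes of each list with an adjusted p below 0.05 by edgeR, higher in Tg7 to the right and lower to the left, at 2w and 12w, with the number tested beside each bar. The bar of the 10 marker genes reaches 4 at 2w and 8 at 12w, and Myc targets reach 5 and 8 on the lower side.

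Markers of cells other than β-cells moved at the same time. Summed markers of stellate cells and fibroblasts were 362 to 508 CPM (2w Wt), 544 to 722 (2w Tg7), 94.8 to 157 (12w Wt) and 409 to 431 CPM (12w Tg7), so that they were higher in Tg7 islets at both ages. Of the 12 genes, 6 rose at 2w and 11 at 12w, and Col1a1 went from 3.44 ± 0.904 to 53.8 ± 10.6 CPM at 12w. Endothelial markers were 961 to 1225 CPM (2w Wt), 1071 to 1184 (2w Tg7), 425 to 551 (12w Wt) and 861 to 921 CPM (12w Tg7), and 9 of 10 rose at 12w. Pecam1 went from 57.1 ± 8.52 to 122 ± 5.84 CPM at 12w. Like Kit, Cd9 and Cd81, these markers were lower in 12w than in 2w Wt islets, and endothelial and mesenchymal cells are known to express these 3 genes. Schwann cell markers summed to 145 to 155 CPM (2w Wt), 108 to 149 (2w Tg7), 142 to 173 (12w Wt) and 114 to 121 CPM (12w Tg7), with 3 of 9 tested genes higher and 1 lower at 12w. Most of each sum was Mbp, the gene that fell, at 139 ± 22.0 CPM in 12w Wt and 90.4 ± 4.90 CPM in 12w Tg7 islets. The median log2 fold change of the 9 genes was 2.15 at 12w. Sox10, which defines Schwann cells, was 0.276 ± 0.127 and 1.18 ± 0.124 CPM in Wt and Tg7 islets at 12w. Macrophage markers summed to 49.6 to 68.9 CPM (2w Wt), 58.5 to 107 (2w Tg7), 96.7 to 110.2 (12w Wt) and 86.1 to 90.4 CPM (12w Tg7), with 1 of 10 genes higher at 2w (Lyz2) and 1 lower at 12w (Csf1r). Lyz2 was 3.88 ± 2.31 CPM in 2w Wt and 28.1 ± 30.2 CPM in 2w Tg7 islets, with an SD above its mean in Tg7. Cd68 was 8.35 ± 2.78 and 5.32 ± 0.692 CPM at 12w. Acinar markers summed to 56.3 to 66.0 CPM (2w Wt), 37.5 to 48.2 (2w Tg7), 75.7 to 99.3 (12w Wt) and 51.8 to 56.0 CPM (12w Tg7), and Bhlha15, a factor of acinar cells, fell at both ages. Bhlha15 was the largest part of the sum in Wt islets and went from 43.4 ± 4.31 to 13.9 ± 2.70 CPM at 2w. Over the 9 tested acinar genes the median log2 fold change was 1.52 at 2w and -0.33 at 12w. At 2w 0 of them rose and 1 fell, and at 12w 0 rose and 2 fell. The 2w sum thus follows Bhlha15 more than the other genes. Alpha cell markers had 1 riser (Gc) at each age, and of B and T lymphocyte markers, which summed to 2.61 to 5.58 CPM (2w Wt), 5.39 to 38.3 (2w Tg7), 6.47 to 11.3 (12w Wt) and 3.72 to 6.42 CPM (12w Tg7), 2 of 10 could be tested, with 0 calls by edgeR at either age. Among the 2w Tg7 libraries Gast, Cck and Cd81 were highest in replicate 2 and Neurog3, Myc and Mycn in replicate 3. Cd81 was lowest in replicate 1 (199.8 CPM, beside 254 and 209.7). Kit, Cd9, Aldh1a3 and Sox9 were highest in replicate 1, the library with the highest lymphocyte, macrophage and stellate sums. Without it the 2w value of Kit was 0.94 (adjusted p 0.0228, edgeR), of Cd9 0.52 (adjusted p 0.207) and of Aldh1a3 0.80 (adjusted p 0.421). The part of these cells in the members' values was not tested.

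**Figure D4:**
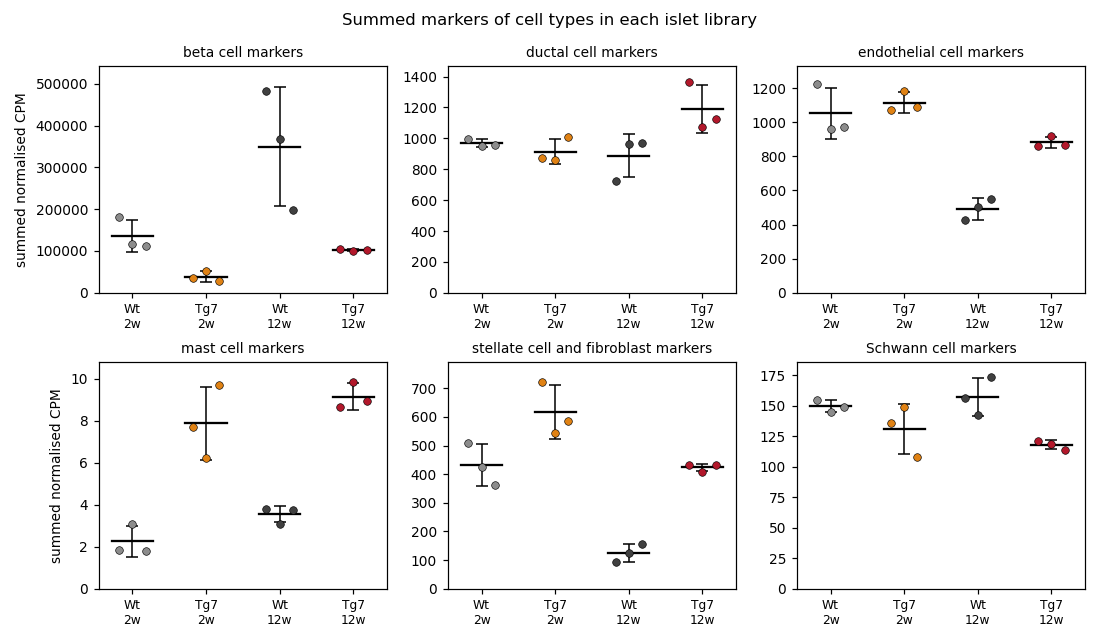
Summed normalised CPM of the marker genes of 6 cell types in each library, by group (x axis), with 1 point per library, a line at the mean and bars of ± 1 SD (n = 3). Stellate and endothelial sums of 12w Tg7 libraries lie above those of 12w Wt libraries, β-cell sums lie below, and mast cell sums stay under 10 CPM.

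Several of these markers went down between 2w and 12w in Wt islets. Of the 10 members, 6 fell (Sox9, Mycn, Kit, Gast, Cd9 and Cd81) and 0 rose, where 7.91% of all genes fell and 7.9% rose. For 7 members (the 6 and Cck) every 12w Wt library lay below every 2w Wt library, as it did for 15.6% of all genes. With the Wt libraries fitted alone, Kit and Cd81 fell and the other 4 calls were lost (adjusted p 0.122 for Sox9, 0.101 for Mycn, 0.0823 for Gast and 0.119 for Cd9, edgeR). In the fit of all libraries Kit fell by 1.62 ± 0.23 (adjusted p 0.000419, edgeR), and Cd81 by 0.76 ± 0.16 (adjusted p 0.00539). These 2 calls were kept without any single library. Mycn fell by 1.95 ± 0.53 (adjusted p 0.0233, edgeR), Gast by 1.52 ± 0.43 (adjusted p 0.0274), Sox9 by 1.4 ± 0.42 (adjusted p 0.0385) and Cd9 by 0.73 ± 0.23 (adjusted p 0.0472). Leaving out Wt 2w replicate 2 or 3 ended the Mycn call (adjusted p 0.0590 and 0.0792), leaving out these 2 or Wt 12w replicate 1 or 2 the Gast call (0.0539 to 0.100), and leaving out any of 7 and 9 libraries the calls of Sox9 and Cd9 (0.0508 to 0.226 and 0.0605 to 0.115). For Sox9 these were Wt 2w replicate 3, Tg7 2w replicate 2, Wt 12w replicates 2 and 4 and each 12w Tg7 library, and for Cd9 these and the 2 other 2w Wt libraries. The number of falling members dropped to 3 when Wt 2w replicate 2 or Wt 12w replicate 2 was left out and to 2 when Wt 2w replicate 3 was left out. Among all tested genes, omitting these 2w libraries also cut the falls, from 1263 to 774 (replicate 2) and to 785 (replicate 3). Omitting the 12w library did not, with 1340 falls. Aldh1a3 went against the others, with a log2 fold change of 1.29 ± 0.54 (adjusted p 0.120, edgeR). Without Wt 12w replicate 1 it rose by 1.75 (adjusted p 0.00987), and without Wt 12w replicate 4 its value was 0.71 (adjusted p 0.375). Neurog3, Myc and Cck had values of 0.15 ± 0.28, -0.18 ± 0.19 and -1.90 ± 0.94, with no call.

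In Tg7 islets the same interval split the members. Neurog3, Aldh1a3 and Gast rose and Sox9, Myc and Kit fell, where 7.02% of all genes rose and 6.01% fell. Aldh1a3 rose by 2.56 ± 0.50 (adjusted p 0.00388, edgeR), a 5.89-fold higher level, and Gast by 1.55 ± 0.36 (adjusted p 0.0116). Neurog3 rose by 0.86 ± 0.26 (adjusted p 0.0435, edgeR). Kit fell by 1.2 ± 0.22 (adjusted p 0.00247, edgeR), Sox9 by 1.53 ± 0.38 (adjusted p 0.0172) and Myc by 0.89 ± 0.19 (adjusted p 0.00671). Kit and Sox9 thus fell with age in both genotypes, and for these 2 genes the effect of Tg7 did not differ detectably between the ages (0.42 ± 0.31 with a 95% interval from -0.25 to 1.09, and -0.14 ± 0.58 with an interval from -1.39 to 1.11). The values of Cck (2.41 ± 0.82, adjusted p 0.0692, edgeR), Cd81 (0.25 ± 0.16), Cd9 (-0.12 ± 0.22) and Mycn (-0.05 ± 0.43) did not pass. The calls of Aldh1a3, Kit and Myc were kept without any single library. The Gast call was lost without Tg7 12w replicate 3 (adjusted p 0.0595, edgeR), the Sox9 call without Tg7 2w replicate 1 or any 12w Tg7 library (0.0503 to 0.0720), and the Neurog3 call without Wt 2w replicate 1 or 3 or any of the 6 Tg7 libraries (0.0511 to 0.217). Without Tg7 12w replicate 3, a single member rose, and over all genes 694 rose in place of 1120. Cck passed without Tg7 2w replicate 2 (3.44, adjusted p 0.0375, edgeR), Wt 12w replicate 2 or Wt 12w replicate 4 (adjusted p 0.0490 and 0.0179).

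**Figure D5:**
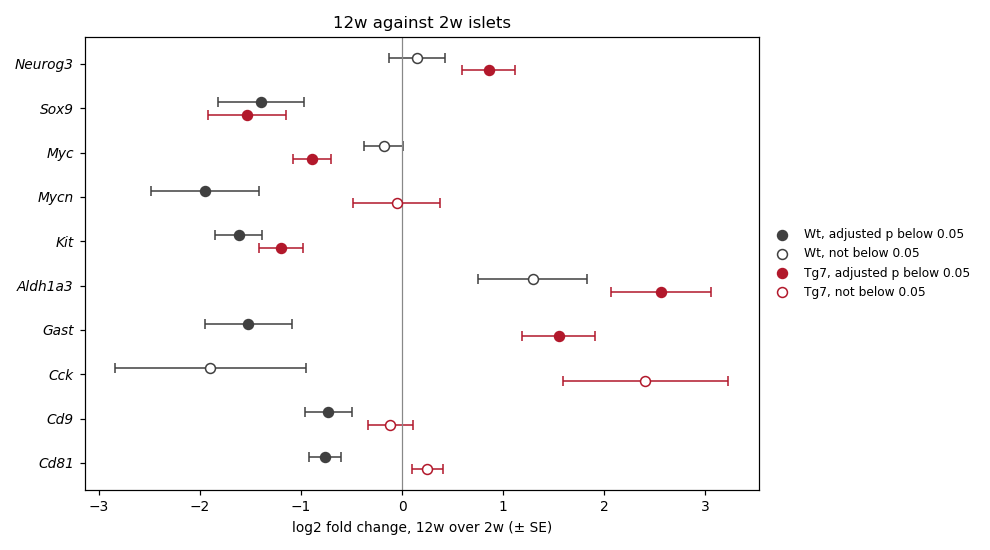
Log2 fold change of each gene in 12w over 2w islets (x axis) in Wt (dark) and Tg7 (red), with bars of ± 1 SE from edgeR and filled points where the adjusted p lies below 0.05. The Wt points of 6 genes are filled on the lower side, and in Tg7 3 genes are filled on each side.

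The test of the difference between the effects at both ages was passed by 2 members, both higher at 12w, where 0.871% of all genes passed in that direction and 0.307% in the other. They were Gast and Cd81, with the values given above. For Mycn the difference was 1.89 ± 0.68 (adjusted p 0.222, edgeR), for Cck 4.30 ± 1.24 (adjusted p 0.126), for Aldh1a3 1.27 ± 0.72 (adjusted p 0.459), for Neurog3 0.71 ± 0.38 (adjusted p 0.421) and for Cd9 0.61 ± 0.32 (adjusted p 0.411). A member past the threshold at 12w alone is therefore not shown to differ between the ages, apart from Gast. Cck passed without Wt 12w replicate 4, the library that holds all 11 of its 12w Wt counts (adjusted p 0.0111, edgeR).

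For each member that passed at either age, the tested genes of most similar pattern were those with the smallest root mean square difference of centred log2 CPM over the 12 libraries. Cd81 was closest to Uchl1 (0.20), a deubiquitinase of neurons and endocrine cells, followed by Dclk2 and Dmd (0.20 and 0.21), and Cd9 to Rbms3 (0.20), Ntn4 and Ppp2r2b (0.22 each). Kit was closest to Kif26a (0.24), C530008M17Rik (0.28) and 2610021K21Rik (0.29), and Neurog3 to H2-DMa (0.26), Fam55d (0.28) and Ifit2 (0.29). Myc was closest to Trip6 (0.22), Id1 (0.23) and 2610035D17Rik (0.24). The rarer members had looser matches, Gast to Arhgef4 (0.36), Tro (0.44) and Srcin1 (0.44), Mycn to Matk (0.43), 4930452B06Rik (0.55) and Hs3st1 (0.60), Aldh1a3 to Edn2 (0.54), 4930444P10Rik (0.64) and Morc1 (0.65), and Cck to P2rx2 (0.82). Over all tested genes the median of this distance was 0.77 for Cd81 and 1.66 for Cck. None of the members was among the 3 nearest genes of another member.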

How the data were processed

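Per the labels and the study's methods, NEB Ultra II kits were used for library preparation, and paired-end reads were trimmed with Trimmomatic, aligned to mm9 (NCBIM37) with TopHat2 2.0.11 and counted with featureCounts, with bcl2fastq 2.20.0 named in the submitters' processing notes. The authors deposited these as raw counts per Ensembl gene for 12 libraries, without normalisation. The sources used here do not give the strand setting or the treatment of reads shared by overlapping genes. Total counts of 11610697 to 17515758 per library limit the precision of the rarest members, and 1 count was worth 0.0497 to 0.126 CPM.

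Symbols were found for 37205 of 37991 identifiers. The members, the gene lists and the tests were chosen with earlier results of these data known. Of 315 list symbols, 4 matched 2 identifiers and were left out. Low genes were removed with filterByExpr (at least 10 counts in enough libraries and 15 in all). The others were scaled with TMM factors and fitted with glmQLFit and glmQLFTest (edgeR 4.0.16, R 4.3.3) as means of the 4 groups. The Benjamini-Hochberg threshold was 0.05, SE is taken from the log2 fold change and the root of its F value, and intervals are 95% from the t distribution. The script was tested on simulated data. Libraries of the same number were not paired: their residuals correlated at -0.0214, -0.167 and -0.0343 at 2w and at -0.0894 and -0.0112 at 12w, and the labels name no shared litter or batch. All members are named. From each list at most 4 genes an age are named, those past the threshold with the largest change, beside ligands, receptors, paralogs and defining markers. A few genes that these rules select are not reported here. Alternatives were library size alone, upper-quartile factors, DESeq2 size factors, DESeq2 1.42.0, no filter, a filter of 50 counts in 3 libraries, the libraries of a comparison alone, a replicate block and each library left out. Sequences came from RefSeq (miRNA, promoters of GRCm38.p6) and from mm9 with its GENCODE annotation (3′ UTRs). Promoter coordinates are on GRCm38.p6 and all others on mm9. Figures used matplotlib 3.10.9.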

Additional observations from a re-analysis of the deposited data

Results flagged for a closer look

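The effect of the Tg7 genotype differed between the ages for 2 of the 10 genes, by a test of the difference itself in edgeR. For Gast the log2 effect was 3.07 larger at 12w than at 2w (SE 0.56, adjusted p 0.0165), with all 3 of the 12w Tg7 libraries above all 3 of the 12w Wt libraries and overlap at 2w. For Cd81 it was 1.02 larger (SE 0.22, adjusted p 0.0436), with no overlap between the genotypes at either age. Both values were positive without any single library, from 2.90 to 3.35 for Gast and from 0.84 to 1.15 for Cd81, and the calls were lost without 3 libraries for Gast and without 9 for Cd81.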

How the results depend on the processing

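Every log2 fold change of the 8 members called at 12w stayed positive and past the threshold in all alternatives that gave a value, apart from Cck without Tg7 12w replicate 2. Cck did not pass the stricter filter, and the comparisons between ages had no replicate block. With DESeq2 the difference between the effects was passed by 4 members (Mycn, Gast, Cck and Cd81), with upper-quartile factors by 1 (Gast). The labels name no pairs, and a pairing of libraries with the same number is not excluded. With the replicate block 0 members passed the difference between the effects, with an adjusted p of 0.0856 for Gast and 0.0836 for Cd81 by edgeR. The block also ended the 2w call of Neurog3 (adjusted p 0.0805, edgeR) and changed no other call of a member. With the libraries of the comparison alone, 2 members fell with age in Wt islets (Kit and Cd81). Leaving out single libraries gave 2 to 6 members higher at 2w, 7 to 9 at 12w, 0 to 1 rising and 2 to 6 falling with age in Wt islets, 1 to 4 rising and 2 to 3 falling with age in Tg7 islets, and 0 to 3 with a larger effect at 12w. Over all genes, these fits gave 377 to 1613 higher at 2w and 1403 to 2148 at 12w. With age 562 to 1873 rose and 774 to 2147 fell in Wt islets. In Tg7 islets 626 to 1731 rose and 489 to 1598 fell, and 65 to 412 had a larger effect at 12w. Library size alone turned the sign of the age change of Neurog3 in Wt islets to -0.26 and of the difference of Sox9 to 0.18. Left-out libraries turned the signs of Gast at 2w (lowest -0.14, highest 0.30), of Myc at 12w (-0.0284 to 0.29), of Cd9 with age in Tg7 islets (-0.25 to 0.0024) and of the difference of Sox9 (-0.67 to 0.29), none of which had passed. Why these values turned was not tested. At 2w, Mycn passed with DESeq2 and with the 2w libraries alone, and Cd9 with both, without a filter and with library size alone. Sox9 passed at 12w with library size alone. Of all genes, 969 rose and 726 fell at 2w in the main setting, 1488 and 983 with DESeq2, 1163 and 1190 with the 2w libraries alone and 1670 and 317 with library size alone. At 12w 1330 rose and 881 fell with the block, in place of 1989 and 1783. With age 493 rose and 790 fell in Wt islets and 1759 and 1682 in Tg7 islets with those libraries alone, in place of 1261 and 1263 and of 1120 and 959, and library size alone gave 325 and 3795 and 645 and 1061. The difference between the effects was passed by 139 genes up and 49 down, by 350 and 216 with DESeq2, 239 and 181 without a filter, 323 and 24 with library size alone and 81 and 27 with the block. Depth limits Gast, Cck and Mycn, which rest on 17, 11 and 21 counts over the 12w Wt libraries.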
